A study of Mus musculus with 6 samples.

Results

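The *Skint* family of the mouse was followed in RNA sequencing of fetal thymic stroma from wild-type (WT) and *Jmjd6*-/- embryos with and without RANKL. The 10 genes *Skint1* to *Skint10* were taken by gene symbol, and each was found once among the 22513 entries of the expression table. The thymic lobes came from fetal C57BL/6 mice and had been cultured for 4 days with 2-deoxyguanosine (2-DG), an agent that removes most haematopoietic cells and leaves the stroma, in all groups. The lobes were then either left unstimulated or given RANKL for 4 days, and *Jmjd6*, a gene for a JmjC-domain hydroxylase, was disrupted in all cells of the *Jmjd6*-/- lobes. There was 1 library of unstimulated WT stroma, 1 of unstimulated *Jmjd6*-/- stroma, 2 of RANKL-stimulated WT stroma and 2 of RANKL-stimulated *Jmjd6*-/- stroma. The sample labels call the repeated libraries technical duplicates while the methods of the study call them samples, so p-values measure only the spread between these libraries, which may be technical. Levels are in FPKM, the fragments mapped to a gene for the length of its transcript and the size of the library, a scale per length on which genes can be compared with each other.

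Skint proteins are membrane proteins of the butyrophilin-like branch of the immunoglobulin superfamily, and their genes are known for expression in thymic epithelium and in skin. Skint1, the founding member, is required in the fetal thymus for the development of the Vγ5Vδ1 T cells that later populate the epidermis as dendritic epidermal T cells. RANKL, a cytokine of the tumour necrosis factor family, acts on medullary thymic epithelial cells (mTECs) through its receptor RANK and the NF-κB pathway, and Vγ5 T cell progenitors are one of its sources in the fetal thymus.

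The 10 genes lay side by side on chromosome 4 of the mm10 genome, at chr4:111919555-113999503, a stretch of 2079949 bases. Their order from the lower coordinate was *Skint8*, *Skint7*, *Skint1*, *Skint4*, *Skint3*, *Skint9*, *Skint2*, *Skint10*, *Skint6* and *Skint5*. *Skint9*, *Skint10*, *Skint6* and *Skint5* were read from the minus strand and the other 6 from the plus strand. The GENCODE annotation placed 12 other genes in the same stretch, of which 0 were protein-coding, and only *Skint6* had exons that overlapped another gene, the antisense gene *Gm12823*. The transcripts were related to very different degrees. Identity was counted as identical aligned bases over the full length of the shorter transcript, so unaligned bases lower it. This identity was 88.5% for *Skint5* and *Skint6*, 83.9% for *Skint9* and *Skint10* and 82.7% for *Skint7* and *Skint8*. The median over all 45 pairs was 59.2% and the lowest value 37.6%. Of all members, only *Skint7* and *Skint8* had stretches of 101 bases, the length of 1 read, in common with another gene. These were 137 windows, or 8.12% of the *Skint7* transcript and 11.5% of the *Skint8* transcript, so the division of reads between *Skint7* and *Skint8* is uncertain to that extent.

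**Figure D1:**
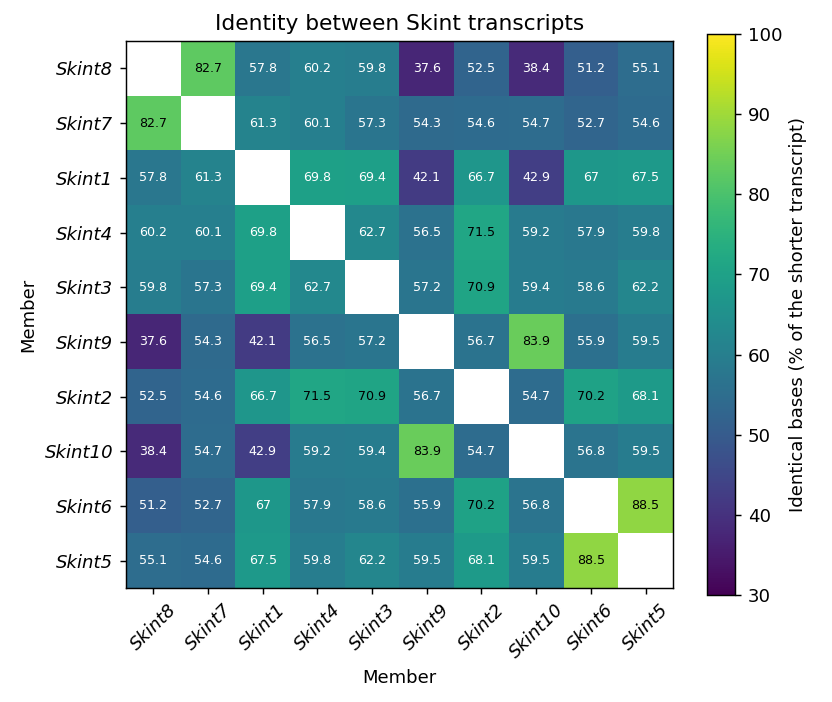
Identity between the longest annotated transcripts of each pair of the 10 Skint genes, as identical aligned bases in percent of the shorter transcript. Both axes are in chromosome order and the shade gives the identity. The pairs Skint5 and Skint6 (88.5%), Skint9 and Skint10 (83.9%) and Skint7 and Skint8 (82.7%) stand out from a median of 59.2%.

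The 250 bases before the annotated start of the members were read from the RefSeq promoter table (GRCm38.p6, the mm10 genome), which held an entry for each of the 10 genes. The windows of 5 members are shown 5′ to 3′ on the strand of the gene, because they include the member with the highest level under RANKL (*Skint10*), its closest tested relative in sequence (*Skint9*), the founding member (*Skint1*), the member with the largest difference between genotypes (*Skint3*) and a member that was close to 0 in every library (*Skint6*). Capitals mark a match to the NF-κB consensus in *Skint10*, and in *Skint1*, *Skint3* and *Skint6* a run of 14 letters that they have in common. The windows lie at chr4:112774862-112775111 (minus strand) for *Skint10*, chr4:112433986-112434235 (minus) for *Skint9*, chr4:112006019-112006268 (plus) for *Skint1*, chr4:112231995-112232244 (plus) for *Skint3* and chr4:113286974-113287223 (minus) for *Skint6*.
Skint10: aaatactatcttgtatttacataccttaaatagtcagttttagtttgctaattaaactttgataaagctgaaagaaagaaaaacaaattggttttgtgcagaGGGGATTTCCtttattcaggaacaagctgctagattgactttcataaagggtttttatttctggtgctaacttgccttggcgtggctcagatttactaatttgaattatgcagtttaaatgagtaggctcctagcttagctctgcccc
Skint9: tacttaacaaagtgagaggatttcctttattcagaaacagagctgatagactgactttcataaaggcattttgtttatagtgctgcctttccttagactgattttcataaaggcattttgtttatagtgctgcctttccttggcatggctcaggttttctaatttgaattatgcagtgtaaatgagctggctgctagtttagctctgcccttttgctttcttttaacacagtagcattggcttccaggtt
Skint1: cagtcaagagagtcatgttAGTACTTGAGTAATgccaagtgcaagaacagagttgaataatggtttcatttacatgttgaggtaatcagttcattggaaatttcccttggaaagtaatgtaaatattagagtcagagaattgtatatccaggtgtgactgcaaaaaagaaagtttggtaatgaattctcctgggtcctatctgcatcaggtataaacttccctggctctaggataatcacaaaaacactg
Skint3: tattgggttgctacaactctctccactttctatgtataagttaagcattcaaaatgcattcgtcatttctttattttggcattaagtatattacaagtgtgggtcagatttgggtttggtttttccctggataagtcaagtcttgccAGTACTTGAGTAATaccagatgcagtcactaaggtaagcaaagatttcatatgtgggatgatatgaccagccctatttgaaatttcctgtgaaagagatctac
Skint6: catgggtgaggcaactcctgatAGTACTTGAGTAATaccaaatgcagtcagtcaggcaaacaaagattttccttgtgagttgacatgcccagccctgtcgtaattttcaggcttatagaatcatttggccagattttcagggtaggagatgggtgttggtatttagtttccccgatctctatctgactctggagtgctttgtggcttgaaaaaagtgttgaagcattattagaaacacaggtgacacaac

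On either strand, the NF-κB consensus matched in the windows of *Skint10*, from 148 to 139 bases before the start, and of *Skint2*, from 195 to 186 bases before it, and in 7.25% of the 32851 promoters of the table. The start that RefSeq gives for *Skint2* is 56546 bases away from the start of its entry in the expression table, so its window may not lie at the start used in these cells. The letters TATAAA were found on either strand in 6 members (*Skint1*, *Skint2*, *Skint4*, *Skint7*, *Skint8* and *Skint9*) and in 12.4% of promoters, and the AP-1 letters TGANTCA in 0 members and in 6.75% of promoters. The run AGTACTTGAGTAAT was the longest stretch present in at least 5 of the windows. It occurred in *Skint1*, *Skint3*, *Skint4*, *Skint5* and *Skint6*, 5 of 32851 promoters (0.0152%), all of them members. The bearers of the run included members with low and with high levels under RANKL, as the values that follow show. A match is a description of the letters in these windows and not evidence of binding.

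The libraries matched their genotype labels, with *Jmjd6* at 25.9 to 32.5 FPKM in the 3 WT libraries and at 1.32 to 1.96 FPKM in the 3 *Jmjd6*-/- libraries. Estimated depths ran from 15900000 to 31100000 fragments. The epithelial markers *Epcam* (156 to 209 FPKM) and *Foxn1*, the master regulator of thymic epithelium (80.8 to 117 FPKM), were present in all 6 libraries. *Ptprc*, which encodes the pan-haematopoietic antigen CD45, was still at 2.89 to 6.81 FPKM, while the T cell gene *Cd3e* was at 0 in 5 libraries and at 0.0345 FPKM in 1. These are bulk samples, in which a change in the number of cells of a type and a change in RNA per cell cannot be told apart.

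The first comparison asked how the family responded to RANKL. Of the 10 members, 8 were expressed above the filter (a mean of at least 0.1 FPKM), and all 8 rose with RANKL over both genotypes, with mean FPKM within a genotype at 2.15 to 78.7 times the unstimulated level. Over both genotypes, 8 of 8 tested members passed an adjusted p of 0.05 (limma on log2 of FPKM plus 0.1, Benjamini-Hochberg) in the higher direction, where 10.5% of the 15894 tested entries did, and 0 of 8 in the lower direction, where 4.11% did. The median change of the 8 was 4.09 on the log2 scale, against -0.02 over all entries tested. Each of the 8 had at least 0.133 FPKM in both unstimulated libraries, so that passing the filter did not require RANKL. The responses ranged from a low starting level with a steep rise (*Skint1*, *Skint9*) to a high starting level with a shallow rise (*Skint8*). The starting level did not by itself order the rises. In WT, *Skint3* began at 0.218 FPKM and *Skint9* at 0.214 FPKM, and they rose 10.9-fold and 33.5-fold.

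**Figure D2:**
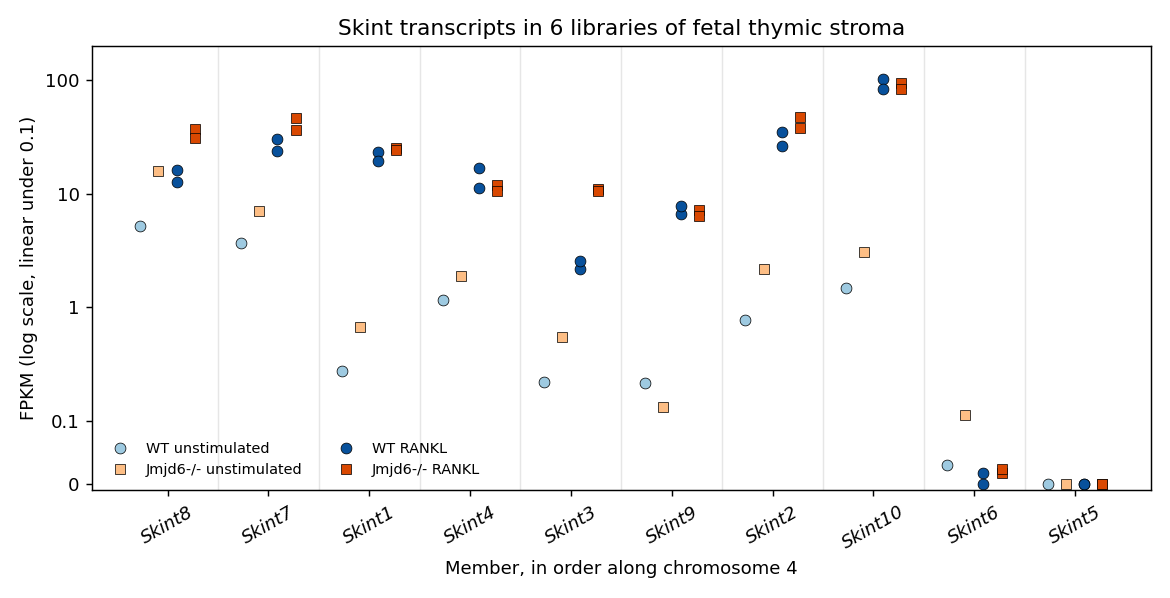
FPKM of each of the 10 Skint genes (horizontal axis, chromosome order) in each of the 6 libraries, on a scale that is linear below 0.1 and logarithmic above, with 1 point per library and the colour and shape giving genotype and RANKL. All RANKL points lie above both unstimulated points for 7 genes, Skint8 is the exception among the 8 tested, and Skint5 and Skint6 stay near 0.

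*Skint1*, the gene needed for Vγ5 T cell development, was at 0.274 FPKM in WT and 0.670 FPKM in *Jmjd6*-/- stroma before stimulation, levels that correspond to about 9.4 and 11.8 fragments. With RANKL it stood at 23.5 and 19.5 FPKM in WT and at 25.1 and 24.0 FPKM in *Jmjd6*-/- stroma. The 4 stimulated libraries were thus far above both unstimulated ones and close to each other. The WT mean of 21.5 ± 2.83 FPKM (SD, n = 2) was 78.7-fold over the unstimulated WT library, and the *Jmjd6*-/- mean of 24.6 ± 0.758 FPKM (n = 2) was 36.7-fold over its own, where counting error on so few unstimulated fragments leaves both folds imprecise. Over both genotypes, the change was 5.43 on the log2 scale (SE 0.21, limma adjusted p = 3.99e-05), rank 19 among all rises.

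*Skint10* had the highest level of the family under RANKL. It rose from 1.48 FPKM (WT) and 3.08 FPKM (*Jmjd6*-/-) to 101.4 and 83.2 FPKM in WT and to 93.9 and 84.3 FPKM in *Jmjd6*-/- libraries. The group means, 92.3 ± 12.8 and 89.1 ± 6.81 FPKM (n = 2 each), differed by less than the spread between libraries. The log2 change with RANKL was 5.33 (SE 0.23, limma adjusted p = 5.95e-05), which ranked 20, next to *Skint1*.

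*Skint9*, the neighbour of *Skint10* in sequence, followed the same course at a lower level. Without RANKL it was at 0.214 FPKM in WT and at 0.133 FPKM in *Jmjd6*-/- stroma, and with RANKL at 6.596 and 7.74 FPKM in WT and at 7.17 and 6.33 FPKM in *Jmjd6*-/- stroma. The unstimulated *Jmjd6*-/- value rests on about 3 fragments, so the 50.9-fold rise in that genotype has a 95% exact Poisson interval, for counting error only, of 14.96 to 212. In WT the rise was 33.5-fold. The log2 change over both genotypes was 4.70 (SE 0.18, limma adjusted p = 3.96e-05).

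*Skint2*, also known as B7S3, lies between *Skint9* and *Skint10* on the chromosome but on the other strand. Its levels were 0.774 and 2.18 FPKM without RANKL, 26.5 and 35.2 FPKM in WT with RANKL and 47.1 and 38.2 FPKM in *Jmjd6*-/- with RANKL. It rose 39.9-fold in WT and 19.6-fold in *Jmjd6*-/- stroma, with a log2 change over both genotypes of 4.68 (SE 0.23, limma adjusted p = 7.3e-05). With *Skint1*, *Skint10* and *Skint9*, it made up the 4 members that ranked within the first 48 rises among 15894 entries.

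*Skint4* and *Skint3*, neighbours on the plus strand, responded less steeply in the fit over both genotypes. *Skint4* was at 1.17 and 1.89 FPKM without RANKL, at 16.9 and 11.3 FPKM in stimulated WT and at 11.8 and 10.5 FPKM in stimulated *Jmjd6*-/- libraries, and its log2 change was 2.98 (SE 0.26, limma adjusted p = 0.000747). *Skint3* was at 0.218 and 0.551 FPKM without RANKL, at 2.17 and 2.56 FPKM in stimulated WT and at 11.02 and 10.5 FPKM in stimulated *Jmjd6*-/- libraries, and its log2 change was 3.51 (SE 0.27, limma adjusted p = 0.000453). The stimulated genotypes overlapped in *Skint4* and were well apart in *Skint3*, which rose 10.9-fold in WT and 19.5-fold in *Jmjd6*-/- stroma.

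*Skint7* and *Skint8*, the pair at the low-coordinate end of the cluster, were the members with the highest levels before stimulation. *Skint7* was at 3.71 and 7.04 FPKM without RANKL, at 30.1 and 23.8 FPKM in stimulated WT and at 46.5 and 36.8 FPKM in stimulated *Jmjd6*-/- stroma, a log2 change of 2.68 (SE 0.15, limma adjusted p = 0.000119). *Skint8* was at 5.22 and 15.8 FPKM without RANKL, at 12.7 and 16.2 FPKM in stimulated WT and at 36.9 and 31.2 FPKM in stimulated *Jmjd6*-/- stroma. Within each genotype both stimulated libraries of *Skint8* lay above the unstimulated one, but the unstimulated *Jmjd6*-/- library lay between the 2 stimulated WT libraries. The *Skint8* log2 change of 1.27 (SE 0.15, limma adjusted p = 0.00242) was the smallest of the tested members, with rank 1186. Without the unstimulated WT library it was 1.09 (adjusted p = 0.0549), and 7 of 8 members were then called higher. By the non-overlap of single values, all RANKL libraries lay above both unstimulated libraries in 7 of 8 tested members and in 18.9% of all tested entries.

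*Skint5* and *Skint6*, the 2 members with the most similar transcripts, were at or close to 0 with and without RANKL. *Skint5* was listed at 0 in all 6 libraries, which allows up to 0.0434 FPKM in the shallower libraries if 3 fragments are taken as the limit of a value of 0. *Skint6* was at 0.0296 FPKM in unstimulated WT, 0.112 FPKM in unstimulated *Jmjd6*-/-, 0.0168 and 0 FPKM in stimulated WT and 0.0175 and 0.0232 FPKM in stimulated *Jmjd6*-/- stroma. The highest of these corresponds to about 6.5 fragments and the 4 stimulated libraries to 0 to 1.8. Both genes were below the filter and were not tested. *Skint11*, a relative that is not among the 10 members, was also low, with 0.234 and 0.267 FPKM in the stimulated WT libraries as its only values above the 3-fragment limit.

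The summed FPKM of the 10 members describe the output of the cluster. *Skint7* and *Skint8* differ in transcript length, 1788 and 1290 bases, so the sum still depends in part on how the reads they have in common were divided. The sum was 13.1 FPKM in unstimulated WT, 31.5 FPKM in unstimulated *Jmjd6*-/-, 219.8 and 199.6 FPKM in stimulated WT and 279.5 and 241.8 FPKM in stimulated *Jmjd6*-/- stroma. Both stimulated *Jmjd6*-/- libraries thus lay above both stimulated WT libraries. The rise with RANKL was 16.0 ± 1.09-fold in WT (SD over the 2 stimulated libraries, against 1 unstimulated library) and 8.28 ± 0.847-fold in *Jmjd6*-/- stroma, and these values were not tested.

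The make-up of the sum changed with RANKL. *Skint7* and *Skint8* together supplied 68.2% of the summed FPKM in WT and 72.6% in *Jmjd6*-/- stroma before stimulation, but 19.4% and 20.1% in stimulated WT and 29.8% and 28.1% in stimulated *Jmjd6*-/- stroma. *Skint10* went the other way, from 11.3% and 9.77% without RANKL to 46.1% and 41.7% in the stimulated WT libraries and 33.6% and 34.8% in the stimulated *Jmjd6*-/- libraries. *Skint10* was thereby the largest single contributor in all 4 stimulated libraries and *Skint8* in both unstimulated ones. Shares of 1 sum depend on each other, so the fall of one is in part the rise of another.

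The second comparison asked whether the family differed between *Jmjd6*-/- and WT stroma under RANKL. 2 of the 8 tested members, *Skint3* and *Skint8*, were higher in *Jmjd6*-/- stroma at an adjusted p of 0.05, where 0.516% of all tested entries were, and 0 of 8 were lower, where 1.82% were. With 2 libraries against 2, an exact permutation test could not go below a two-sided p of 0.333, so these calls rest on the spread that limma shares across genes. The median log2 difference of the 8 was 0.33, against 0.01 over all entries tested.

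*Skint3*, a gene that has been linked to the exchange between keratinocytes and dendritic epidermal T cells in wounded skin, had the largest difference of the family. Its mean was 10.8 ± 0.363 FPKM in *Jmjd6*-/- and 2.37 ± 0.276 FPKM in WT stroma (n = 2 each), a ratio of 4.55 and a log2 difference of 2.14 (SE 0.20, limma adjusted p = 0.0279), rank 51 among all differences in the higher direction. *Skint8* had a mean of 34.0 ± 4.06 FPKM in *Jmjd6*-/- and 14.4 ± 2.48 FPKM in WT stroma, a ratio of 2.36 and a log2 difference of 1.24 (SE 0.17, limma adjusted p = 0.0376). For both genes the lower of the *Jmjd6*-/- libraries was above the higher of the WT libraries. The calls were close to the threshold. Without the first *Jmjd6*-/- RANKL library the *Skint3* difference was 2.11 (adjusted p = 0.0641) and without the second 2.18 (adjusted p = 0.0739), and that of *Skint8* was 1.12 (adjusted p = 0.149) and 1.36 (adjusted p = 0.0921), so that 0 of 8 members were called in either case. Without the second WT RANKL library, *Skint8* was at 1.41 (adjusted p = 0.0517) and *Skint3* alone was called.

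The other members were not called. The log2 difference between genotypes was 0.62 for *Skint7* (SE 0.18, adjusted p = 0.151), 0.47 for *Skint2* (SE 0.20, adjusted p = 0.281) and 0.20 for *Skint1* (SE 0.16, adjusted p = 0.604), all by limma. It was -0.31 for *Skint4* (SE 0.23, adjusted p = 0.555), -0.08 for *Skint9* (SE 0.21, adjusted p = 0.872) and -0.05 for *Skint10* (SE 0.14, adjusted p = 0.903). The sign for *Skint9* and *Skint10* was not stable, since it turned when single RANKL libraries were left out. Both *Jmjd6*-/- libraries lay above both WT libraries in 5 of 8 members (*Skint8*, *Skint7*, *Skint1*, *Skint3* and *Skint2*), compared with 24.5% of all tested entries, and below both in 0 of 8, compared with 26.2%. On the chromosome, *Skint8* and *Skint3* were separated by *Skint7*, *Skint1* and *Skint4*, whose ratios of mean FPKM were 1.54, 1.14 and 0.791.

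**Figure D3:**
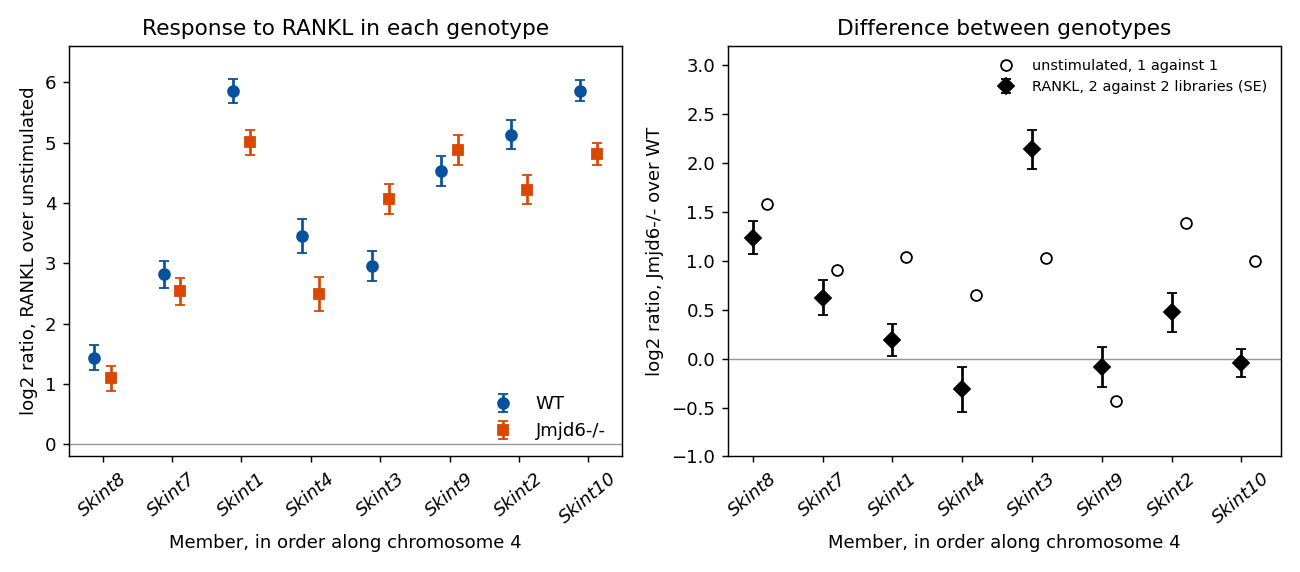
Left, log2 change with RANKL within WT and within Jmjd6-/- stroma for the 8 tested Skint genes in chromosome order. Right, log2 difference between Jmjd6-/- and WT stroma for the same genes. Filled points are limma estimates with bars of 1 standard error. Open points in the right panel compare the unstimulated libraries, 1 against 1, without a test. All changes with RANKL lie above 0, from 1.09 (Skint8, Jmjd6-/-) to 5.86 (Skint10, WT). The differences under RANKL run from -0.31 to 2.14, and only those of Skint3 and Skint8 passed an adjusted p of 0.05.

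The medians of lists of keratinocyte and mesenchyme marker genes also differed between genotypes in the same libraries. On a list of 17 tested epidermal keratinocyte genes, the median log2 difference was 1.16, against 0.01 over all tested entries. The gene at this median was *Krt2*, at 0.0529 FPKM or less in WT. *Krt2* and *Flg2* (0.0523 FPKM or less in WT) reached the filter only through the *Jmjd6*-/- libraries, which raises the median. Of the 17, *Dsg1a* (-0.55) and *Lgals7* (-0.60) had a difference below 0 and the others above 0. In stimulated *Jmjd6*-/- stroma 0 were called lower, where 1.82% of all tested entries were, and 2 were called higher, where 0.516% were. These were *Ivl*, which encodes involucrin of the cornified envelope (0.393 and 0.654 FPKM in WT, 3.22 and 3.56 FPKM in *Jmjd6*-/-, limma adjusted p = 0.028), and *Calm4*, a calmodulin-like gene of differentiating keratinocytes (1.24 and 2.66 FPKM in WT, 14.0 and 16.9 FPKM in *Jmjd6*-/-, limma adjusted p = 0.0284). The summed level of the keratinocyte list was 425 to 643 FPKM in stimulated WT and 946 to 1002 FPKM in stimulated *Jmjd6*-/- stroma. *Sfn* alone was at 218 and 368 FPKM in stimulated WT and at 403 and 426 FPKM in stimulated *Jmjd6*-/- stroma. Of 8 mesenchyme markers, 0 were higher and 2 lower, beside the same shares of all entries, with a median log2 difference of -0.78. The 2 were the fibrillar collagen genes *Col3a1* (log2 difference -0.999, limma adjusted p = 0.028) and *Col1a2* (-0.80, limma adjusted p = 0.035). The mesenchyme list summed to 639 to 702 FPKM in WT and 396 to 411 FPKM in *Jmjd6*-/- stroma. None of the 11 tested mTEC or 12 tested markers of cortical thymic epithelial cells (cTECs) was called between genotypes. Their median log2 differences were 0.02 and 0.16. The mTEC list summed to 1486 to 1952 FPKM in stimulated WT and 2359 to 2377 FPKM in stimulated *Jmjd6*-/- stroma. *Krt5* alone was at 1006 and 1471 FPKM in WT and at 1887 and 1879 FPKM in *Jmjd6*-/- stroma. The cTEC list summed to 13714.6 to 16979.5 FPKM in WT and 17026.8 to 17157.1 FPKM in *Jmjd6*-/- stroma. Bulk libraries do not show which cells expressed the genes of these lists. The part of such cells in the levels of *Skint3* and *Skint8* was not tested.

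Before stimulation the members also tended to be higher in the *Jmjd6*-/- library, in a comparison of 1 library with 1 library that was not tested and has no replicates of its own. With 0.1 added to FPKM, the log2 ratio was 1.58 for *Skint8*, 1.38 for *Skint2*, 1.04 for *Skint1*, 1.03 for *Skint3*, 1.00 for *Skint10*, 0.91 for *Skint7*, 0.65 for *Skint4* and -0.43 for *Skint9*. Thus 5 of 8 members were more than 2-fold higher in the *Jmjd6*-/- library, where 2.99% of tested entries were, and *Skint9* alone was lower. *Skint10* was only just past this cutoff, at 1.004. The *Skint1* ratio rests on about 9.4 fragments in WT and 11.8 in *Jmjd6*-/- stroma, so the count of 5 is imprecise. The summed FPKM of the family was 2.41 times as high in the *Jmjd6*-/- library. The keratinocyte list summed to 933 FPKM in this library and to 543 FPKM in unstimulated WT, and its part in the ratios was not tested.

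The third comparison asked whether the response to RANKL differed between the genotypes. Within WT stroma 8 of 8 tested members were called higher with RANKL (6.05% of all tested entries), and within *Jmjd6*-/- stroma 7 of 8 (3.75%), while none was called lower (0.56% and 0.346% of entries), with *Skint8* short of the threshold at a log2 change of 1.09 (limma adjusted p = 0.0583). Each of these tests set 2 libraries against 1, which is assumed to vary like the stimulated ones. The difference between the responses was itself not called for any member. It was -1.05 for *Skint10* (SE 0.25, limma adjusted p = 0.779, unadjusted p = 0.007), -0.96 for *Skint4*, -0.91 for *Skint2*, -0.85 for *Skint1*, -0.34 for *Skint8* and -0.28 for *Skint7*, and positive for *Skint3* (1.11) and *Skint9* (0.35). By limma, 0 of 15894 entries were called in this comparison (0% in either direction), with 118 higher and 546 lower at an unadjusted p under 0.05. With the replicate number as a block, limma called 27 entries higher and 67 lower, and without the filter 93 and 83. None of the 8 members was among them.

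The selection rule in the study's methods, a range of more than 3-fold over the 6 libraries with 0.1 added, was met by 8 of the 10 members and by 14.3% of all 22513 entries. *Skint5* and *Skint6* were the 2 members that did not meet it.

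The course of *Skint1* over the 6 libraries was set beside that of 12586 other genes (mean FPKM of 1 or more), by the root mean square distance between centred log2 values. The nearest was *Skint10* (0.111), followed by *Tm4sf5*, a tetraspanin-like membrane protein gene (0.209), and *H2-Eb2*, a gene of the major histocompatibility complex class II region (0.233). For *Skint10*, the nearest were *Skint1* (0.111), *H2-Eb2* (0.1499) and *Tm4sf5* (0.196). *H2-Eb2* went from 0.366 and 0.681 FPKM without RANKL to between 18.3 and 27.2 FPKM with RANKL. Within the family, *Skint2* ranked 11 and *Skint9* ranked 32 in nearness to *Skint1*, while *Skint4* (141), *Skint3* (148), *Skint7* (179) and *Skint8* (553) were more distant. The distances describe these 6 libraries, which both genes of each pair have in common.

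Genes of the pathway that RANKL acts on responded in the same libraries. The RANK pathway list also held mTEC genes such as *Aire* and *Cd80* that are not parts of the pathway itself. Of the 16 genes of this list, all tested, 10 rose with RANKL and 0 fell (10.5% and 4.11% of all tested entries), with a median log2 change of 0.92. One of the 10, *Tnfsf11*, the gene of RANKL, was at 0.0474 and 0.0599 FPKM without RANKL and reached the filter only through the stimulated libraries. Of the 4 genes with the highest means, *Ltbr*, which encodes the lymphotoxin β receptor, and *Nfkb1*, an NF-κB subunit gene, were not called, with log2 changes of -0.05 (limma adjusted p = 0.861) and 0.12 (limma adjusted p = 0.477). *Nfkb2*, the subunit gene of the non-canonical pathway, rose by 0.88 (limma adjusted p = 0.00211). *Tnfrsf11a*, which encodes RANK itself, went from 1.84 and 2.41 FPKM to between 12.6 and 16.1 FPKM (log2 change 2.70, limma adjusted p = 8.36e-05). *Aire*, the transcriptional regulator of self-antigens in mTECs, went from 0.142 and 0.473 FPKM to between 67.1 and 79.7 FPKM (7.65, limma adjusted p = 3.96e-05). *Cd80*, a costimulatory ligand of mature mTECs, rose by 3.45 on the log2 scale (limma adjusted p = 5.33e-05). Between genotypes under RANKL, 0 of the 16 were called, where 0.516% of all tested entries were higher and 1.82% lower. Of 11 tested mTEC markers, 8 rose and 0 fell with RANKL, and of 12 tested cTEC markers 0 rose and 4 fell. The mTEC markers *Aire*, *Cd80*, *Tnfrsf11a*, *Cd40* and *Spib* rose and are also on the RANK pathway list. The counts of the pathway and mTEC lists thus overlap.

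Of 11 butyrophilins, butyrophilin-like and other relatives of the Skint genes, 6 passed the filter. *Btn2a2*, the relative with the highest mean, was at 1.27 to 2.01 FPKM in all 6 libraries, and its log2 change with RANKL was -0.04 (limma adjusted p = 0.921). *Btnl2* rose from 0.134 and 0.106 FPKM without RANKL to 0.691 and 0.737 FPKM in WT and 0.298 and 0.2997 FPKM in *Jmjd6*-/- stroma (log2 change 1.37, limma adjusted p = 0.0274). *Btnl1*, whose product shapes γδ T cells in the gut epithelium, was at 0.0158 and 0.0312 FPKM without RANKL, at 2.88 and 2.67 FPKM in stimulated WT and at 1.46 and 1.18 FPKM in stimulated *Jmjd6*-/- stroma. *Btnl6* was listed at 0 in both unstimulated libraries and was at 0.191 to 0.306 FPKM in the stimulated ones. *Btnl1* and *Btnl6* reached the filter only through the stimulated libraries, so their higher levels there are given without a test. None of the 6 was called between genotypes, where 0.516% of all tested entries were called higher and 1.82% lower. On 6 genes, a count of 0 is close to those shares. Their median log2 difference was -0.31, with *Btnl1* at -1.02 and *Btnl2* at -1.03.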

How the data were processed

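Poly-A RNA of 6 cultures of 2-DG-treated fetal thymic stroma had been sequenced in paired-end reads. The authors mapped the reads to mm10 with TopHat2 (version 2.0.10, per the submitters' processing notes) and computed FPKM per gene with Cufflinks 2.1.1, correcting for reads with several hits and treating the libraries as stranded, although the library preparation described keeps no strand, so reads of antisense partners cannot be told apart. These deposited FPKM were used unscaled. Groups came from titles and the stimulation field of the labels. The treatment field gives RANKL for every sample. Starts in the table count from 0 and were raised by 1.

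limma 3.58.1 (R 4.3.3) was fitted to log2 of FPKM plus 0.1 over 15894 entries whose mean FPKM reached 0.1. The prior variance followed the mean level, and p-values were adjusted by the Benjamini-Hochberg method. The RANKL effect was fitted with genotype as a term, and the other contrasts in a model with 1 mean per condition. Fold changes on this scale understate those of low genes. The fits were tested on simulated data. Depth was estimated from the steps between FPKM values under 0.15 and the transcript length less 150 bases. It is approximate, a value of 0 was taken to allow 3 fragments, and such limits cover counting error only. Transcripts and overlaps came from GENCODE and promoters from RefSeq, with alignments in Biopython 1.88.

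All 10 members were named. Of 8 other lists, named genes are among the 4 with the highest mean in each list, those called between genotypes, and genes that check tissue or genotype, among them *Aire*, *Cd80* and *Tnfrsf11a*. *Tnfsf11*, *Cd40*, *Krt2*, *Flg2*, *Dsg1a*, *Lgals7* and *Tcrg-C1* were named after the values were seen. For *Skint1* and *Skint10*, the 3 genes with the nearest profiles were also named. *Skint11* and the positions of motifs were added after values were seen. The members and lists were chosen with earlier results of these data known. Alternatives were other added constants (1 and 0.01), filters, scalings, no trend, RANKL libraries only, the replicate number as a block, leaving out each library and, for sums, each member.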

Additional observations from a re-analysis of the deposited data

How the results depend on the processing

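Over both genotypes, 8 members were higher with RANKL and 0 lower under every alternative except that 7 were higher without the unstimulated WT library. The count of members higher in *Jmjd6*-/- stroma under RANKL, 2 in the report, was 0 without the filter on low values, 1 without the mean-variance trend and 0 to 2 when single libraries were left out. Dropping from the unfiltered fit the entries at 0 in all libraries, an alternative chosen after seeing the data, also gave 0. Without the filter, limma called 1 entry higher and 1 lower between genotypes among all 22513, with 1321 and 2191 at an unadjusted p under 0.05, and members higher with RANKL numbered 3 in WT and 1 in *Jmjd6*-/- stroma in place of 8 and 7. With the entries at 0 in all libraries dropped, they numbered 7 and 5. The cause was not tested. The difference between genotypes turned sign for *Skint9* (-0.20 to 0.031 over the libraries left out, 0.00447 without the second *Jmjd6*-/- RANKL library) and for *Skint10* (-0.19 to 0.10, the latter without the first WT and 0.03 without the second *Jmjd6*-/- RANKL library). The rise of the summed FPKM in WT, 16.0-fold, was 14.7 without *Skint1*, 14.5 without *Skint2*, 19.5 without *Skint7*, 24.8 without *Skint8* and 10.1 without *Skint10*. In *Jmjd6*-/- stroma, 8.28-fold became 14.5 without *Skint8* and 6.04 without *Skint10*, and the ratio of *Jmjd6*-/- to WT under RANKL, 1.24, became 1.46 without *Skint10*. Of 544 values of single members under alternatives, 511 kept direction and side of the threshold, 25 lost the threshold, 4 passed it and 4 reversed.

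Replicate numbers did not show a pairing of the libraries (r = -0.0778 over 12587 genes between the deviations of the 2 genotypes, with 2 pairs only). With the replicate number as a block, 8 members were higher with RANKL and 3 in *Jmjd6*-/- stroma, where *Skint7* was added (adjusted p = 0.0261), 8 rose within each genotype, and calls between genotypes over all genes went from 82 higher and 290 lower to 396 and 1081. Depth limits *Skint5*, *Skint6* and the unstimulated level of *Skint9*.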

Other observations

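The T cells that Skint1 selects could not be followed by their receptor, since the γδ receptor genes *Trdc* and *Tcrg-C1* had no entry in the expression table. Of 12 genes of a γδ T cell list in the table, 7 passed the filter. With RANKL 1 rose and 2 fell, where 10.5% and 4.11% of all tested entries did. Between genotypes 0 were called, where 0.516% of all tested entries were higher and 1.82% lower. The list summed to 10.7 FPKM in unstimulated WT, 6.80 FPKM in unstimulated *Jmjd6*-/-, 8.52 to 9.50 FPKM in stimulated WT and 4.595 to 4.90 FPKM in stimulated *Jmjd6*-/- stroma. Of 8 tested haematopoietic genes, 1 rose and 3 fell with RANKL, beside the same 10.5% and 4.11% of all entries. *Emr1*, which encodes the macrophage antigen F4/80, was at 34.7 and 31.1 FPKM without RANKL and at 12.7 to 21.8 FPKM with it (log2 change -0.999, limma adjusted p = 0.0159), and *Ptprc* had a log2 change of -1.001 (limma adjusted p = 0.00547).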
